A study of Mus musculus with 10 samples.

Results

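*Cytl1* (cytokine-like 1) is 1 of the 29183 genes listed for both lineages of this single cell data set, and it was the only gene described here in depth. It was chosen by its share of UMIs, which was the highest of all listed genes in the *Grem1*-lineage plates, so its own levels are given as a description and without a test. *Cytl1* encodes a small secreted protein that was first found in CD34+ blood progenitor cells and was later linked to the formation of cartilage from mesenchymal cells. In cartilage it is a product of chondrocytes, the cells that make the collagen and proteoglycan matrix of articular cartilage (AC) and of the growth plate (GP). Mice without *Cytl1* form cartilage, but their joints are more easily damaged in models of osteoarthritis. The chemokine receptor CCR2 has been proposed as its receptor.

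Single cells of C57BL/6 hind limbs were sorted into 96-well plates, and transcripts were counted by unique molecular identifiers (UMIs), which count PCR copies of a cDNA molecule once. The *Grem1*-lineage was represented by 8 plates (1, 2, 4, 5, 6, 7, 8 and 9) from *Grem1-TdT* mice, in which a tamoxifen-inducible Cre recombinase under *Grem1* control switches on the red fluorescent protein TdTomato. These mice were 5 to 6 weeks old when tamoxifen chow was started, which was given for 2 weeks, and live TdTomato+ cells came from excised AC and GP. The *Lepr*-lineage was represented by 2 plates (1 and 2) from age-paired *Lepr-TdT* mice, in which Cre under *Lepr* control switches on the same reporter in marrow stromal cells, and cells negative for CD45, Ter119 and CD31 came from whole bones. No tamoxifen is stated for *Lepr-TdT* mice. Both reporters also mark descendants of the cells that expressed Cre. Plates were the replicates. The number of mice behind a plate and whether a plate held AC cells, GP cells or both are not given in the labels.

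Of 768 *Grem1*-lineage wells, 684 with at least 350 detected genes were kept, with 76 to 94 per plate. Their UMIs summed to between 133289 and 179071 per plate, with a median of 1472.5 per cell. Of 162 *Lepr*-lineage wells, 160 were kept, with 64310 and 59981 UMIs in the shared genes and a median of 505 per cell. Over all genes listed for that lineage the median was 1222 per cell. The shared genes held 40.9% of the *Lepr*-lineage UMIs but 100% of the *Grem1*-lineage UMIs. *Lepr*-lineage shares of the UMIs in shared genes are therefore higher than shares of all UMIs would be. The *Grem1*-lineage counts list only these 29183 genes in full, against 50508 for the *Lepr*-lineage, so the 100% follows from the list. *Grem1*-lineage shares are thus shares of listed genes, and what unlisted genes would add to the total is not known. The same 96 well barcodes recurred on every *Grem1*-lineage plate and 92 of them on the *Lepr*-lineage plates. They name wells, not cells, so barcodes could not show whether plates shared cells. The chondrocyte markers fixed for the check of labels (9 genes) took 3.11 to 5.38% of UMIs in one group of *Grem1*-lineage cells described next and 10.7 to 14.3% in the other. In the *Lepr*-lineage plates they took 0.0150 and 0.109% (lower value first, as in the pairs that follow), with *Col9a1* at 0. The marrow stromal markers, among them *Cxcl12*, took 1.05 and 1.51% of the UMIs in all genes listed for that lineage. Of the UMIs in shared genes, blood markers took 2.43 and 3.60% on these plates (0 to 0.659% in *Grem1*-lineage sums). Osteoblast markers took 0.355 and 1.79%, so the *Lepr*-lineage sums also hold transcripts of other cell types. The totals differ, so the stromal percentages cannot be set against the blood percentages.

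*Grem1*-lineage cells were divided by 4 transcripts. A cell in which *Clu*, *Cilp* and *1500015O10Rik* together had more UMIs than *Cnmd* was called articular-like, after the articular chondrocyte markers *Clu* and *Cilp*. All other cells were called *Cnmd*-rich, after the gene of chondromodulin, a matrix protein of avascular cartilage. The split gave 414 articular-like cells (43 to 68 per plate) and 270 *Cnmd*-rich cells (26 to 40 per plate). The names describe transcripts, not the tissue that was excised.

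In the annotation of GRCm38 the gene lies on chromosome 5 between positions 37735519 and 37739820 on the plus strand. No other gene overlapped it, and its nearest annotated neighbours were *Stk32b* (18347 bases away) and *Gm43763* (67485 bases away), so reads of an overlapping gene could not be counted as *Cytl1*. It had 4 exons, and its 417 coding bases encode 139 amino acids. The 250 bases before its annotated start are shown as the region before the annotated start of the most abundant listed gene. UMIs were counted per gene and not assigned to its 2 annotated transcripts. They are given 5′ to 3′ from RefSeq (GRCm38.p6, chr5:37735269-37735518, plus strand), with a TATA-like stretch in capitals:
*Cytl1* promoter: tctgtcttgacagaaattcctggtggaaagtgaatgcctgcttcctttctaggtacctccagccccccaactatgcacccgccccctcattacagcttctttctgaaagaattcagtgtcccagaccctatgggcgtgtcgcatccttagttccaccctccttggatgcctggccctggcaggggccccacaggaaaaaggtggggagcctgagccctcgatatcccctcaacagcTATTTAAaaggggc
Both strands were searched for 6 short motifs. The capitals mark the only match, TATTTAA, which begins 14 bases before the start and occurs in 4.18% of 32851 mouse promoters of this length. The letters TATAAA (12.4% of promoters), the SOX-type cores ACAAAG (16.5%) and ACAATG (10.7%) and the E-boxes CAGCTG (13.0%) and CACGTG (6.02%) were not in this window.

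*Cytl1* made up 7.59% ± 1.12 (SD, n = 8 plates) of the UMIs of listed genes in *Grem1*-lineage cells. It ranked first among the listed genes on 8 of 8 plates. Its share was 6.47% on plate 1, 6.78% on plate 2, 8.05% on plate 4, 6.91% on plate 5, 6.92% on plate 6, 9.51% on plate 7, 8.97% on plate 8 and 7.14% on plate 9. Plates 7 and 8 were the highest, and the other 6 plates lay between 6.47% and 8.05%. A kept cell held a mean of 130.9 ± 20.5 *Cytl1* UMIs. The share in single cells ran from 0.729% to 32.4%, with a median of 7.38%. Each UMI stands for 1 cDNA molecule and was not divided by transcript length, so the order of genes is an order of counted molecules.

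The gene next in abundance was *Col2a1*, the main collagen of cartilage, with 4.44% ± 0.695 of UMIs over the 8 plates. *Actb* (beta-actin) followed with 2.65% ± 1.60, then *Cst3*, a secreted cysteine protease inhibitor, with 2.05% ± 0.343 and *Chad*, a leucine-rich matrix protein that binds cells to collagen, with 1.96% ± 0.377. The remaining genes of the 10 most abundant were *Cnmd* (1.62%), the small proteoglycan *Dcn* (0.988%), *1500015O10Rik* (0.921%), *3110079O15Rik* (0.872%) and the secreted chaperone *Clu* (0.824%). Thus *Cytl1* had 1.71 times the UMIs of *Col2a1* and 3.88 times those of *Chad*. Genes outside the deposited list were not analysed here, and the order holds for the listed genes.

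**Figure D1:**
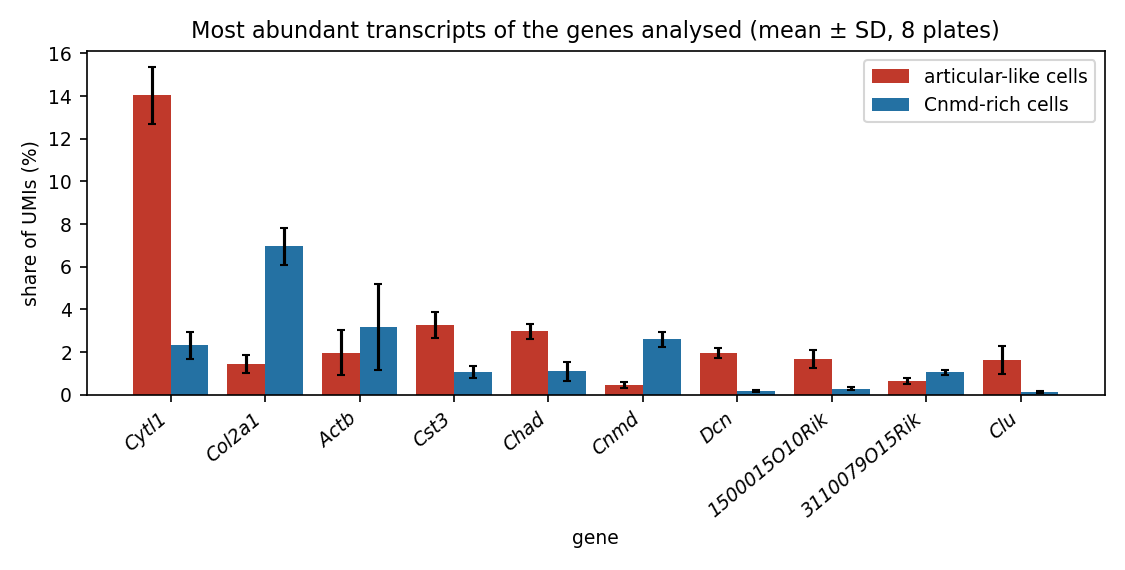
Share of UMIs (y axis, %) of the 10 most abundant listed genes (x axis) in articular-like and *Cnmd*-rich cells, with bars for the mean and error bars for the SD over 8 *Grem1*-lineage plates. *Cytl1* is the tallest bar in articular-like cells at 14.0%, whereas *Col2a1* is the tallest in *Cnmd*-rich cells at 6.96%.

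In articular-like cells *Cytl1* took 14.0% ± 1.33 of UMIs (SD, n = 8 plates) and was again first on 8 of 8 plates. The shares were 12.8% on plate 1, 12.7% on plates 2 and 4, 13.6% on plate 5, 15.8% on plate 6, 14.9% on plate 7, 15.8% on plate 8 and 14.0% on plate 9. The next gene on each plate was *Cst3*, *Chad* or *Actb*, with between 2.70% and 4.26%. The mean number of *Cytl1* UMIs per articular-like cell was 181 ± 30.4, and plate means ran from 144 to 225. Because *Cytl1* took so many UMIs, the shares of all other genes in these cells would be 1.16 times as high if it were left out of the total, against 1.02 times in *Cnmd*-rich cells.

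In *Cnmd*-rich cells *Cytl1* took 2.31% ± 0.645 of UMIs and ranked 3 or 4 among the listed genes. The shares were 1.45% on plate 1, 2.32% on plate 2, 2.05% on plate 4, 2.12% on plate 5, 1.95% on plate 6, 2.14% on plate 7, 3.56% on plate 8 and 2.90% on plate 9. *Col2a1* was first in this group on every plate, with 6.96% ± 0.864 over plates. Plates 8 and 9 had the highest *Cytl1* share, and the other 6 plates lay between 1.45% and 2.32%. Each *Cnmd*-rich cell held a mean of 55.8 ± 18.1 *Cytl1* UMIs, with plate means from 35.2 to 83.4.

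Every articular-like plate share lay above every *Cnmd*-rich plate share. The log2 ratio of shares, articular-like over *Cnmd*-rich, was 2.64 ± 0.35 (SD, n = 8 plates), a 6.24-fold difference that ran from 4.43-fold on plate 8 to 8.79-fold on plate 1. By UMIs per cell the difference was smaller, with a log2 ratio of 1.74 ± 0.41 and a mean fold of 3.34 (2.12 to 4.76). Articular-like cells were shallower, with a median of 1217 UMIs against 2218.5, which enters the share through its denominator. Articular-like cells held 74.9 to 90.5% of all *Cytl1* UMIs of a plate. No test is given, since the groups were cut from transcripts of the same cells.

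**Figure D2:**
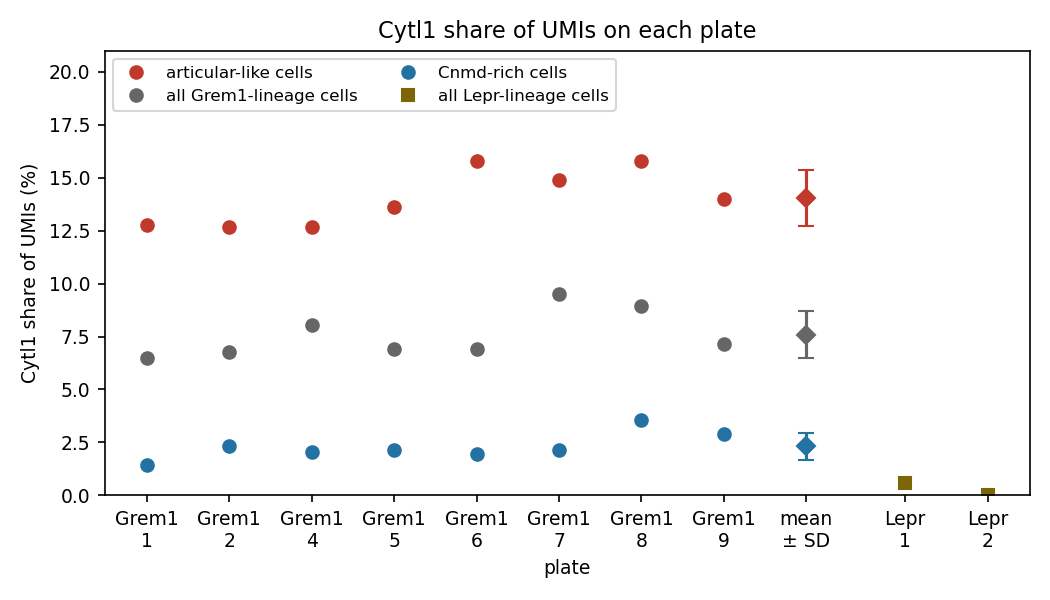
*Cytl1* share of UMIs (y axis, %) on each plate (x axis) for articular-like, *Cnmd*-rich and all *Grem1*-lineage cells and for *Lepr*-lineage cells, with 1 point per plate and diamonds with bars for the mean ± SD of 8 plates. Every articular-like point (12.7 to 15.8%) lies above every *Cnmd*-rich point (1.45 to 3.56%), and the *Lepr*-lineage plates are at 0.560% and 0.

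The 3 plates with the lowest articular-like share were also those with the least *Actb*, a gene that was set beside *Cytl1* after its values had been seen. In articular-like cells *Actb* took 0.624% on plate 1, 0.755% on plate 2 and 0.893% on plate 4, and it took between 2.21% and 3.37% on the other 5 plates. The *Cytl1* shares were 12.7 to 12.8% on those 3 plates and 13.6 to 15.8% on the others. Whether the plate difference in *Actb* has a part in that of *Cytl1* was not tested. In *Cnmd*-rich cells *Actb* also differed in this way (0.812 to 0.853% against 3.73 to 5.53%), but plate 2 had more *Cytl1* than plates 5, 6 and 7.

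Single cells of both groups varied widely. Among the 414 articular-like cells the *Cytl1* share had a 10th percentile of 4.03%, a median of 13.8%, a 90th percentile of 22.2% and a maximum of 32.4%. Of these cells, 285 (68.8%) had 10% or more of their UMIs from this one gene, and 80 had 20% or more. Among the 270 *Cnmd*-rich cells the corresponding values were 1.20%, 1.88% and 4.10%, with a maximum of 28.0%, and 252 cells (93.3%) were below 5%. Thus both groups had tails that reached into the range of the other.

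**Figure D3:**
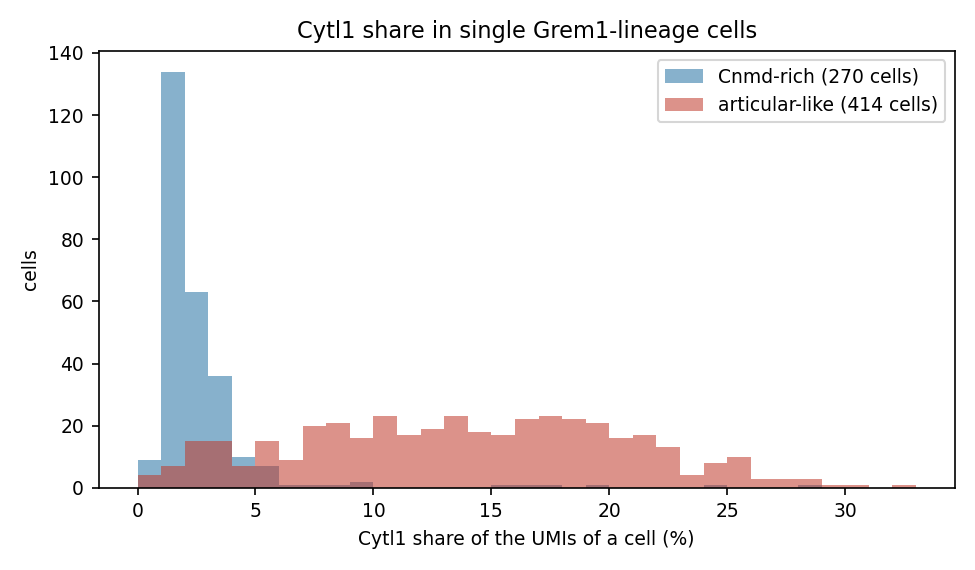
Number of cells (y axis) by *Cytl1* share of the UMIs of a cell (x axis, %, steps of 1) for 270 *Cnmd*-rich and 414 articular-like cells of 8 plates. *Cnmd*-rich cells pile up near their median of 1.88%, whereas articular-like cells spread broadly around 13.8%.

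The tails were small. Only 6 *Cnmd*-rich cells, on plates 2, 5, 8 and 9, had a share of 10% or more. They held 213 to 475 *Cytl1* UMIs and 1057 to 1696 UMIs in all, and their 3 articular transcripts had 6 to 13 UMIs against 11 to 20 for *Cnmd*. The cell with the highest share (28.0%) had 13 UMIs on each side, a tie that the rule assigns to the *Cnmd*-rich group. In a clear split the larger side needed at least 3 times the UMIs of the other and at least 5 UMIs. This left out 107 cells near the boundary, the 6 cells above among them. The *Cytl1* shares of the remaining cells were 14.1% in articular-like and 1.98% in *Cnmd*-rich cells. At the other end, 11 articular-like cells had a share under 2%, and in 5 of them the blood or osteoblast markers exceeded the chondrocyte markers.

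The spread beyond counting noise was expressed as a coefficient of variation of the share between cells of a plate. For *Cytl1* it was 47.6% ± 10.5 in articular-like cells, with the lowest value on plate 9 (34.3%) and the highest on plate 1 (65.2%). Of the 10 most abundant genes in these cells, *Cnmd* had a lower mean (40.8% ± 8.51) and *3110079O15Rik* nearly the same (47.8% ± 6.78), and the other 7 had 63.8% (*Col2a1*) to 88.2% (*Dcn*). *Cnmd*, *Clu* and *1500015O10Rik* took part in the split, and whether this changed their spread was not tested. In *Cnmd*-rich cells its variation was 86.6% ± 44.1 and ran from 33.9% on plate 4 to 153% on plate 2, a plate with 2 of the 6 cells of high share. *Cst3* (134% ± 44.8) and *Chad* (91.6% ± 28.9) had higher means there. *Col2a1* varied by 46.5% ± 5.32, and the rest of the 10 most abundant genes had 26.1% (*Clu*) to 70.0% (*Actb*).

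Deeper cells held more *Cytl1* UMIs in both groups, by a smaller factor in the *Cnmd*-rich group. As a description across cells, the Spearman correlation of *Cytl1* UMIs with the other UMIs of a cell was 0.476 in articular-like cells (0.313 to 0.706 over 8 plates) and 0.372 in *Cnmd*-rich cells (0.221 to 0.527). Cells of each plate and group were put in 4 bins of equal number by their total UMIs. From the shallowest to the deepest bin, mean *Cytl1* UMIs per articular-like cell were 87.2 ± 26.5, 158 ± 34.5, 212 ± 36.7 and 267 ± 40.9 (SD, n = 8 plates), at median depths of 776, 1056, 1345 and 1746 UMIs. The share went from 11.0% ± 2.89 in the shallowest bin to 14.7% ± 2.18, 15.5% ± 1.89 and 14.0% ± 2.37. In *Cnmd*-rich cells the 4 bins held 58.7 ± 26.8, 50.1 ± 19.0, 51.3 ± 20.4 and 62.4 ± 12.6 *Cytl1* UMIs at median depths of 1342, 1958.5, 2502 and 3591. The share in *Cnmd*-rich cells was 4.41% ± 1.87 in the shallowest and 1.69% ± 0.396 in the deepest bin. Of the 6 *Cnmd*-rich cells of high share, 5 lay in the shallowest bin and 1 in the next. Without these 6 cells, left out after their values were seen, the means of the 4 bins were 42.3 ± 12.3, 46.9 ± 16.8, 51.3 ± 20.4 and 62.4 ± 12.6 *Cytl1* UMIs, and the share in the shallowest bin was 3.17% ± 0.473. The Spearman correlation of the *Cytl1* share with depth was 0.243 in articular-like and -0.582 in *Cnmd*-rich cells (mean of 8 plates), and both measures share the depth of a cell.

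**Figure D4:**
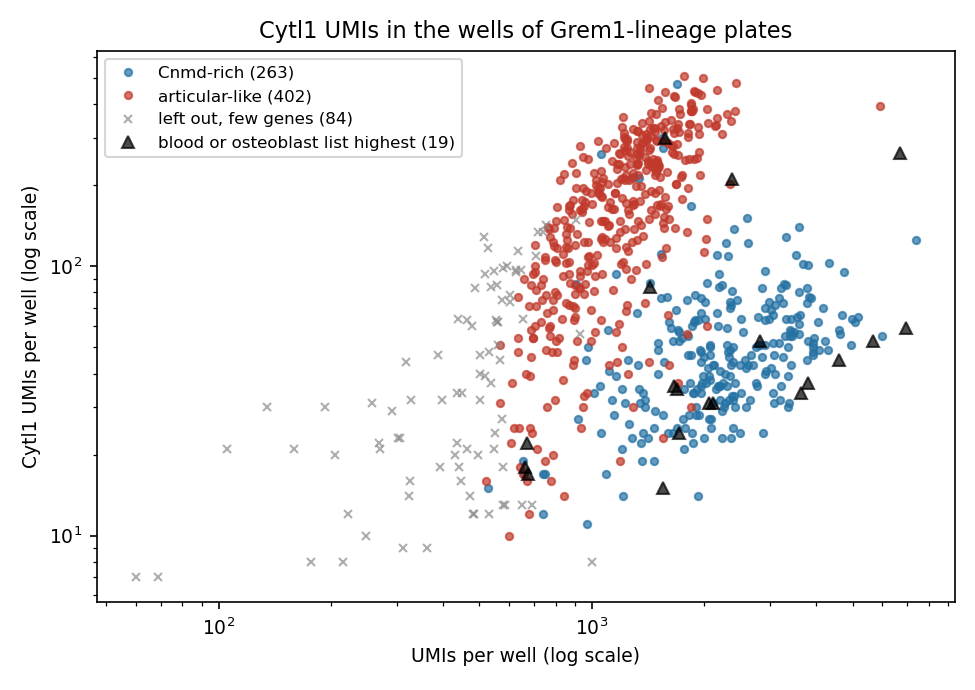
*Cytl1* UMIs (y axis, log scale) against all UMIs (x axis, log scale) in each of the 768 wells of *Grem1*-lineage plates, by group. Articular-like cells (median 165 *Cytl1* UMIs) and *Cnmd*-rich cells (median 47) both have higher counts at greater depth, and the 84 left-out wells and 19 wells led by blood or osteoblast markers hold *Cytl1* as well.

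Genes that follow *Cytl1* were sought among those with a mean of at least 1 UMI per cell, by Spearman's rho within each plate and group, with *Cytl1* left out of the total. In the 414 articular-like cells 131 genes, *Cytl1* included, met this level, and the median rho was -0.00348. *Chad* followed *Cytl1* most closely, with a mean rho of 0.521 over 8 plates (0.396 to 0.665). It was joined by *Enpp2* (0.431), which encodes autotaxin, the enzyme that makes lysophosphatidic acid, and by *3110079O15Rik* (0.335) and *Cst3* (0.335). The next were *Cpe* (0.296), a carboxypeptidase of the secretory pathway, *Cilp* (0.292), a matrix protein of the middle layer of AC, *1500015O10Rik* (0.291) and *Cd200* (0.288), a surface glycoprotein used to sort skeletal stem cells. *Cilp* and *1500015O10Rik* also took part in the split of cells. *Chad*, *Enpp2*, *3110079O15Rik*, *Cst3*, *Cpe*, *Cilp* and *1500015O10Rik* had a rho above 0 on 8 of 8 plates and *Cd200* on 7.

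The lowest values in articular-like cells belonged to *Bglap3* (-0.234), an osteocalcin gene that had UMIs on 5 of the 8 plates, to *Fmod* (-0.207), a collagen-binding proteoglycan, to *Crip1* (-0.167) and to *Col1a2* (-0.131), a chain of bone collagen. *Fmod* and *Col1a2* were below 0 on 7 plates and *Crip1* on 6. *Bglap3* is 1 of several near-identical genes, and reads may be split among them. Of the articular-like cells, 9 had more UMIs of the osteoblast markers than of the chondrocyte markers. The part of these cells in the rho of *Bglap3* and *Col1a2* was not tested. Of the 8 genes with the highest rho, 7 also took a larger share in articular-like than in *Cnmd*-rich cells, against 65 of all 130 genes compared. *3110079O15Rik* was the exception, with 0.663% in articular-like and 1.05% in *Cnmd*-rich cells. For *Cilp* and *1500015O10Rik* the direction was set by the split itself, and they were not left out of these counts.

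In the 270 *Cnmd*-rich cells 349 genes met the level, and the median rho was -0.0781. *Cst3* followed *Cytl1* most closely (0.552, range 0.415 to 0.727), ahead of *Cpe* (0.396), the ferritin chain *Fth1* (0.359), *Dcn* (0.355), the lipid carrier *Apoe* (0.320), *Cilp* (0.308), *2900055J20Rik* (0.288) and the immediate early gene *Egr1* (0.258). All 8 took a larger share in articular-like cells, as did 79 of the 348 genes compared. For *Cilp*, which was not left out, this direction was set by the split. The difference was smallest for *Apoe*, with 0.180% in articular-like and 0.169% in *Cnmd*-rich cells. The genes that ran against *Cytl1* were 4 fibrillar and associated collagens of cartilage, *Col9a3* (-0.388), *Col11a1* (-0.380), *Col9a1* (-0.365) and *Col2a1* (-0.358). Depth moved with these values: when it was held constant by partial correlation, *Cst3* had 0.332, *Cpe* 0.269 and *Dcn* 0.142, and the 4 collagens had -0.155 to -0.205. When each cell was instead thinned to 796 UMIs, which kept 262 cells, *Cst3* had 0.536, *Cpe* 0.415 and *Dcn* 0.482, whereas the 4 collagens had -0.125 to -0.297. The 4 collagens were closer to 0 under both ways, and *Dcn* moved in opposite directions. *Cst3*, *Cpe* and *Cilp* were among the 8 highest in both groups.

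**Figure D5:**
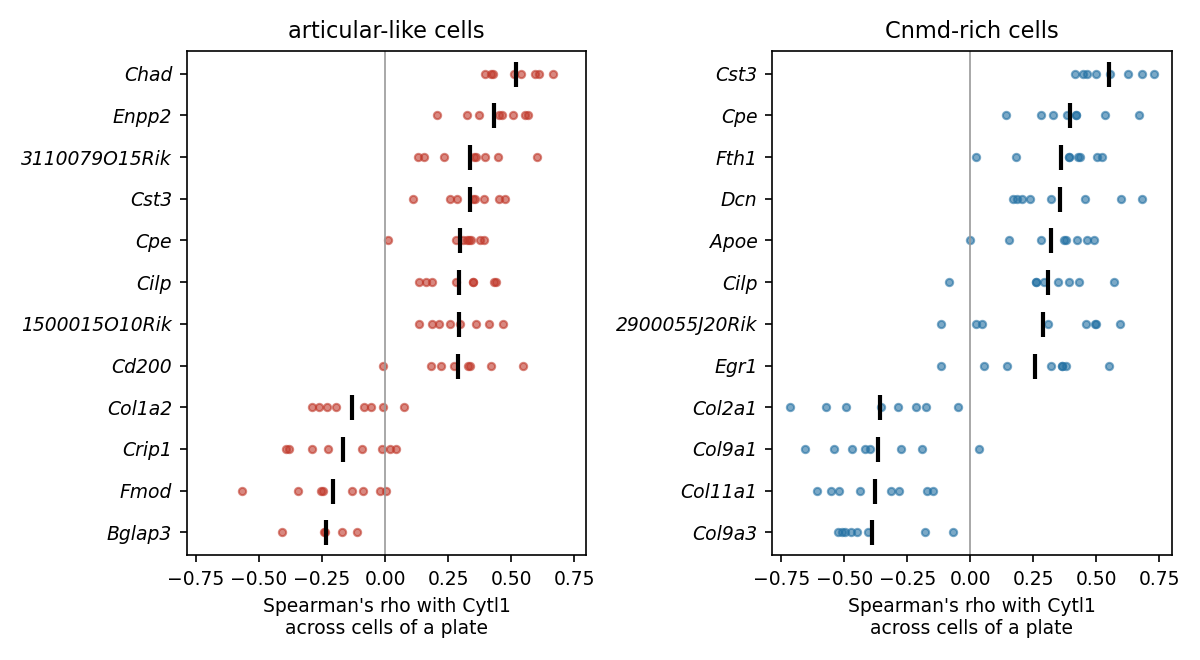
Spearman's rho with *Cytl1* across the cells of a plate (x axis) for the 8 genes with the highest and the 4 with the lowest mean (y axis) in articular-like and *Cnmd*-rich cells, with 1 point per plate and a bar for the mean. *Chad* leads in articular-like cells at 0.521 and *Cst3* in *Cnmd*-rich cells at 0.552, and 4 cartilage collagens lie below 0 in *Cnmd*-rich cells.

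Across the sums of a plate and group, the 5 genes whose log2 share was most like that of *Cytl1* were *Cilp*, *Gas1*, *Dcn*, *1500015O10Rik* and *Cst3*. All 5 differed strongly between the groups, as *Cytl1* did, and a correlation over both groups would restate that difference. Within the 8 articular-like sums, *Cilp* had a Pearson's r of 0.914 (Spearman's rho 0.952), *1500015O10Rik* 0.870 (0.881), *Cst3* 0.737 (0.929), *Gas1*, a membrane protein of hedgehog signalling, 0.672 (0.714) and *Dcn* 0.057 (0.238). Within the 8 *Cnmd*-rich sums, the r values were 0.802 for *Cilp*, 0.701 for *Gas1*, 0.562 for *Cst3*, 0.335 for *1500015O10Rik* and -0.043 for *Dcn*. *Dcn* thus shared the difference between groups but not the order of plates. The genes were chosen for their likeness, so these values have no test. *Cilp* and *1500015O10Rik* also took part in the split that formed the sums.

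Cells with a UMI of certain genes differed in *Cytl1* share. Among articular-like cells, the 141 with a UMI of *Foxo1*, a transcription factor that protects chondrocytes, had a share of 15.2% ± 1.86 against 13.4% ± 1.39 in the 273 without (higher on 7 of 8 plates, median depths 1337 and 1156). The share was 15.2% ± 1.37 with and 12.3% ± 2.88 without a UMI of *Cd200* (7 of 8 plates), where depths were 1389.5 and 975. For *Col10a1*, the collagen of hypertrophic cartilage, it was 14.4% ± 0.992 and 13.6% ± 2.70 (6 of 8 plates). In *Cnmd*-rich cells the share was 2.02% ± 0.641 with and 2.71% ± 0.862 without a UMI of *Fgfr3*, the fibroblast growth factor receptor of chondrocytes (higher with it on 1 of 8 plates, depths 2407 and 1960). In all 4 comparisons the cells with a UMI were deeper, and the part of depth in these differences was not tested.

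*Cytl1* was present in each of the 768 *Grem1*-lineage wells, so no well gave a level of 0. The lowest well held 7 UMIs on plate 1, 8 on plate 2, 17 on plate 4, 12 on plates 5 and 6, 15 on plate 7, 13 on plate 8 and 27 on plate 9. This was 10.5% ± 4.39 of the mean of a kept cell of the same plate (6.41 to 19.6%). The mean of the 5 lowest wells of a plate corresponded to 10.0% (5.50 to 18.9%) of the articular-like mean but to 32.5% (16.5 to 48.7%) of the *Cnmd*-rich mean. Whether these molecules came from the cell in the well was not tested.

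The 84 wells below the minimum of detected genes held 7 to 149 *Cytl1* UMIs, with a median of 32, at a median of 501.5 UMIs in all. Their median *Cytl1* share was 9.05%, and 67 of them lay on the articular-like side of the split. A further 19 kept wells on 7 plates had more UMIs of the blood, endothelial or osteoblast markers than of the chondrocyte markers. They held 15 to 299 *Cytl1* UMIs with a median of 36, of which the 14 led by the osteoblast list had a median of 33 and the 7 led by the blood list one of 53, and 2 wells counted in both. No well was led by endothelial markers.

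In 5 wells, chosen after their values were seen, the osteoblast markers had more than 10 times the UMIs of the chondrocyte markers. The well on plate 2 held 237 osteoblast UMIs and 31 of *Cytl1*, and that on plate 5 held 2765 and 37. On plate 7 one well held 870 and 15 and the other 3015 and 45, and the well on plate 9 held 1743 and 53. Their *Cytl1* shares were 0.968 to 1.87%, all below the *Cnmd*-rich median of 1.88%. In the articular-like sums of the plates, which include such wells, the osteoblast list took 0.103 to 5.35% of UMIs and the blood list 0 to 0.659%.

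When the mean of the 5 lowest wells was subtracted from each well of a plate, an alternative added after these values were seen, the share was 12.8% ± 1.46 in articular-like and 1.59% ± 0.598 in *Cnmd*-rich cells. The log2 ratio was then 3.08 ± 0.44, or 8.46-fold (5.17 to 11.4), and higher in articular-like cells on 8 of 8 plates. A larger ratio follows from the subtraction itself, since the same number of UMIs is a larger part of the *Cnmd*-rich mean. Wells with the same barcode on different *Grem1*-lineage plates had a mean Spearman correlation of 0.243 in *Cytl1* UMIs over 28 pairs of plates and of 0.153 in total UMIs. Between *Lepr*-lineage plate 1 and each of the 8 *Grem1*-lineage plates, the mean correlation in *Cytl1* UMIs was 0.0675 (-0.163 to 0.207).

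The 2 *Lepr*-lineage plates differed from each other. Plate 1 held 360 *Cytl1* UMIs in 60 of 74 cells, or 0.560% of its UMIs in shared genes (95% exact Clopper-Pearson interval 0.504 to 0.621%, counting error only). Plate 2 held 0 among 59981 UMIs in 86 cells, which allows a share of up to 0.00500%. The mean of 0.280% ± 0.396 (n = 2 plates) therefore describes neither plate. *Cytl1* ranked 12th on plate 1 among the shared genes, which were led there by *Camp*, a neutrophil gene, with 2.45% of their UMIs.

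A pair of wells on plate 1 held 205 of these 360 UMIs. The first held 151 *Cytl1* UMIs, 8.11% of its total (6.91 to 9.45%), together with 82 UMIs of *Clu*, *Cilp* and *1500015O10Rik*, none of *Cnmd*, 6 of *Col2a1* and 5 of *Cxcl12*. It also held 60 UMIs of *Prg4*, the gene of the joint lubricant lubricin, which was looked up after the *Cytl1* value was seen. The second held 54 *Cytl1* UMIs (4.71%, 3.56 to 6.10%), 16 of the 3 articular transcripts, 1 of *Prg4*, 8 of *Col2a1*, 9 of *Cxcl12* and 62 of the blood list. Both shares lay between the 10th and 90th percentiles of articular-like cells, and the transcripts of the second well were the more mixed.

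Without these wells, plate 1 held 155 *Cytl1* UMIs in 58 of 72 cells, with a median of 2 and a maximum of 8 per cell. The share was then 0.253%, and the mean of both plates was 0.126%. The same 72 cells held 38 UMIs of *Prg4*, 23 of *Cilp*, 8 of *Chad*, 3 of *Col2a1* and 2 of *Cnmd*. Plate 2 held 1 UMI of *Prg4* and 0 of *Cilp*, *Chad*, *Col2a1* and *Cnmd*. *Clu* and *Cxcl12*, in contrast, were at similar levels on both plates, with 153 and 162 UMIs of *Clu* and 1294 and 1646 of *Cxcl12*. Whether *Cytl1* in these 72 cells was made by them was not tested.

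CCR2 and its ligands were sparse. *Ccr2* had 8 UMIs in 4 of the 684 *Grem1*-lineage cells and 8 in 4 of the 160 *Lepr*-lineage cells. Its ligand genes *Ccl2* and *Ccl7* had 5 and 3 UMIs in *Grem1*-lineage cells against 83 and 45 in *Lepr*-lineage cells, where they were seen in 37 and 25 cells. *Ccl8* and *Ccl12* had none in either lineage. At this depth the level of *Ccr2* could not be compared between the lineages.

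A list of 25 other secreted and matrix genes of cartilage was compared between the lineages to place *Cytl1* among them. With plates as replicates (2 against 8), 23 of 25 fell below the *Grem1*-lineage level at an adjusted p of 0.05 (quasi-likelihood test of edgeR, Benjamini-Hochberg adjustment), whereas 16.8% of all 2943 tested genes did so. One gene was higher, against 12.2% of all tested genes. The median log2 fold change of the list was -5.40, and that of all tested genes was -0.11. *Col9a1* and *Epyc* had 0 UMIs in *Lepr*-lineage cells against 3607 and 781 in *Grem1*-lineage cells, and *3110079O15Rik* had 1 against 10377. *Ecm1*, a glycoprotein of the extracellular matrix, was higher in the *Lepr*-lineage, with a log2 fold change of 3.04 (SE 0.60, Benjamini-Hochberg adjusted p = 0.0014 in the quasi-likelihood test of edgeR, 87 against 72 UMIs). This call was lost without *Lepr*-lineage plate 2, when 22 genes were lower and 0 higher. *Bgn*, a proteoglycan shared by bone and cartilage, had 313 and 2667 UMIs, and its log2 fold change of -0.30 (SE 0.29) did not pass (Benjamini-Hochberg adjusted p = 0.46 in the same edgeR test). Tissue, sort and tamoxifen differed with the lineage and cannot be told apart from it.

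Between articular-like and *Cnmd*-rich sums, 23 of the 25 genes could be fitted, and they divided. In edgeR's quasi-likelihood fit, which had no plate term, 8 were higher and 11 lower in articular-like cells at an adjusted p of 0.05. Of all 1070 genes, 19.4% were higher and 21.6% lower. The median log2 fold change was -0.40 in the list and -0.02 over all genes. With the plate as a block, 8 listed genes were higher and 12 lower, against 242 and 268 of all genes. The groups were cut from transcripts of the same cells, so these counts describe the split. The higher genes were led by *Dcn* (log2 fold change 3.68, SE 0.17), *Cilp2* (3.67, SE 0.24), a relative of *Cilp*, and *Frzb* (2.53, SE 0.41), a secreted Wnt inhibitor. The other 5 were *Chil1*, *Col10a1*, *Cst3*, *Chad* and *Comp*. The lower genes were led by *Epyc* (-4.05, SE 0.32), a GP proteoglycan, *Col9a1* (-2.39, SE 0.27) and *Col9a3* (-2.04, SE 0.20), and the other 8 were *Col2a1*, *Col9a2*, *Col11a2*, *Col27a1*, *Chadl*, *Col11a1*, *Acan* and *Bgn*. *Cytl1* thus lay with *Dcn*, *Cst3* and *Chad* on the articular-like side, whereas the type II, IX and XI collagens lay on the other.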

How the data were processed

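Single cell UMI counts of 8 *Grem1*-lineage and 2 *Lepr*-lineage plates were used. The authors deposited whole-number UMI counts per gene and well, without normalisation. The submitters' processing notes name UMI-tools, STAR, featureCounts, SAMtools, Seurat and mm10, and the study's methods name Cell Ranger without tying it to these plates. Of 29184 rows of the *Grem1*-lineage table, 1 incomplete row was left out, and the 29183 remaining genes are also among the 50508 rows of the *Lepr*-lineage table. There were 0 other columns of samples. Wells with at least 350 detected genes were kept, and doublets were not called.

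*Cytl1*, the groups and the gene lists were chosen with earlier results of these data known. Shares are percentages of the UMIs in the shared genes. The marrow stromal markers and the most abundant genes of the *Lepr*-lineage are exceptions, taken over all genes listed for that lineage. Counts summed per plate, or per plate and group, were tested with edgeR 4.0.16 in R 4.3.3 (TMM, filterByExpr, quasi-likelihood test, Benjamini-Hochberg adjustment at 0.05), and p-values measure the spread between plates, which may be technical. Named genes were the 10 most abundant in *Grem1*-lineage and 5 in *Lepr*-lineage plates, the 8 highest and 4 lowest by rho, the 5 most like *Cytl1* across sums, and the 3 with the largest change each way in a list. *Lepr*-lineage leaders over all genes listed for that lineage, not only the shared genes, were *S100a8*, *Sec61a1*, *Malat1*, *Cxcl12* and *Ngp*. Sums of the same plate deviated together (mean r 0.270, 0.145 to 0.416, above 0.1 on 8 of 8 plates, against -0.0384 for different plates). The 2 groups are thus paired by plate, but the main fit between them had no plate term. A fit with the plate as a block was an alternative. On simulated counts with a log2 change of 2, edgeR recovered 72.5% of changed genes with 4.61% false calls in the comparison of lineages (2944 genes). In the comparison of groups (1075 genes) it recovered 80% with 2.44% false calls. The simulation gave every gene the same spread between sums and drew the sums independently. Its rates need not hold for the real counts, where sums of the same plate deviated together. Alternatives were other filters on wells and counts, other denominators and splits, thinning to 796 UMIs per cell, DESeq2 1.42.0, its size factors, a block and each plate left out. Intervals and limits cover counting error only.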

Additional observations from a re-analysis of the deposited data

Results flagged for a closer look

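Among 35 groups of plate values examined for a single distant plate, 1 was found. Chance gives about 1 in 20 such groups, so 1 of 35 is no more than that rate. The groups share plates and cells and are not independent. In articular-like cells the Spearman correlation of *Cpe* with *Cytl1* was 0.0103 on plate 6, whereas it was 0.281 to 0.392 on the other 7 plates. Without plate 6 the mean was 0.336 in place of 0.296.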

How the results depend on the processing

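The *Grem1*-lineage share of *Cytl1* was 9.44% as the mean of single cells and 9.85% without the 20 other most abundant genes, where the articular-like share was 18.1% and the *Cnmd*-rich share 3.02%. With the 5 lowest wells subtracted, the *Cnmd*-rich share was 1.59% and the log2 ratio 3.08. In *Lepr*-lineage cells no listed cartilage gene was higher without plate 2 (0 in place of 1). With each plate left out in turn, the share was 7.32 to 7.75% in *Grem1*-lineage, 13.8 to 14.2% in articular-like, 2.14 to 2.44% in *Cnmd*-rich and 0 to 0.560% in *Lepr*-lineage cells, the log2 ratio 2.57 to 2.71, and the list counts 0 to 1 higher and 22 to 23 lower between lineages. The plate as a replicate block gave 8 higher and 12 lower listed genes between groups. Plates 1 and 2 alone, with the block, gave 1 and 20 of 23 tested between lineages, and 1 and 19 without it. The labels do not say that plates of the same number are paired between lineages. In both groups together, rho was -0.0910 for *3110079O15Rik*, 0.194 for *Crip1* and 0.000410 for *Col1a2*, against the opposite sign in articular-like cells. Of all genes tested between groups, 381 were higher and 324 lower of 12509 without a filter, against 208 and 231 of 1070. Between lineages, 358 were higher and 494 lower of 2943. On plates 1 and 2 alone, 225 were higher and 263 lower of 1914 with the block, and 211 and 240 without it. Without *Lepr*-lineage plate 2, which leaves 1 plate of that lineage, the median log2 fold change of the cartilage list was -5.13, against -5.40. The causes were not tested.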
